A study of Mus musculus with 15 samples.

Results

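HSF1 binding in brown adipose tissue of mice labelled as TXNIP knockouts (KO) was compared with that of wild type (WT) mice, all after 40 min of cold stress. Of the 15 samples of the series, 4 enter the comparison: 2 KO libraries and 2 WT libraries. The WT libraries are the second of 2 WT pairs at this time, and their titles carry the replicate numbers with a suffix. Each sample is an HSF1 ChIP-seq library from whole tissue fixed with DSG and then with formaldehyde, and each is represented by the authors' own list of narrow peaks, without read counts. Cold exposure, tissue and antibody are the same in both groups. The labels give genotype and treatment, and no allele, driver line, strain, sex, age, temperature or pooling of animals, and they do not say which WT pair was prepared together with the KO. Nothing in the labels says that replicates are separate mice, and p-values can then reflect technical variation among libraries alone. Peaks that touched by at least 1 bp across the 4 lists were merged, which gave 18147 regions on chromosomes 1 to 19, X and Y. A region was called KO only when both KO libraries and neither WT library had a peak there, WT only in the opposite case, and shared when all 4 libraries had a peak.

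HSF1 is the transcription factor that heat and other proteotoxic stress release from chaperones. As a trimer it binds inverted repeats of the letters GAA, the heat shock element, in front of genes for chaperones and their partners. TXNIP is an arrestin-like protein that binds thioredoxin and promotes removal of the glucose transporters encoded by Slc2a1 and Slc2a4 from the cell surface. Brown adipose tissue burns lipid and glucose for heat, and in the cold it is driven by noradrenaline through cAMP.

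The sequences below are promoter windows from RefSeq (build GRCm38.p6), each reaching from 250 bases before to 50 bases after a gene start. They are examples from the classes of region, and those with a marked match are not typical of their class. Hspe1 and Hsph1, a mitochondrial co-chaperonin and a partner of HSP70, lie under strong shared regions. Txnip is the gene knocked out, Lingo3 and Sdhb lie under WT only regions, and Pno1 lies under a KO only region. Capitals mark a stretch that reads TTC, any 2 letters, GAA, any 2 letters and TTC, or the same on the other strand (GAA, 2 letters, TTC, 2 letters, GAA), with all 9 fixed letters. Only 1 match is marked per window, and a window without capitals has no such match. A match was present in 28 of 477 windows under the strongest of 4 equal parts of the shared regions (5.87%). Of 450 windows under WT only regions, 1 held it (0.222%), that of Lingo3. In Hspe1 a second exact match, on the other strand, overlaps the marked one and runs on into the lower-case letters.
Hspe1, chr1:55087898-55088197, plus strand: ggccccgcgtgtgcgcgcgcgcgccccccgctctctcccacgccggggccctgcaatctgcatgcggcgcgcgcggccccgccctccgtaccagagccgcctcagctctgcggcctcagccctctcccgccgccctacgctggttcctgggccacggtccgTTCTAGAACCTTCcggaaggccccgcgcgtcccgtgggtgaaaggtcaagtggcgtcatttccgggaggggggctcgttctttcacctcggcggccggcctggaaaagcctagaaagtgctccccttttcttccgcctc
Hsph1, chr5:149636266-149636565, minus strand: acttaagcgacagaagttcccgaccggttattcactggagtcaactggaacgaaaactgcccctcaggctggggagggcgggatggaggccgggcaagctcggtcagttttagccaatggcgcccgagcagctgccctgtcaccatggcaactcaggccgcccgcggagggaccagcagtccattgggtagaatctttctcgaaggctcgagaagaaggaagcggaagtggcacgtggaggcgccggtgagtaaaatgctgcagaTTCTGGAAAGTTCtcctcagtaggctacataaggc
Txnip, chr3:96557707-96558006, plus strand: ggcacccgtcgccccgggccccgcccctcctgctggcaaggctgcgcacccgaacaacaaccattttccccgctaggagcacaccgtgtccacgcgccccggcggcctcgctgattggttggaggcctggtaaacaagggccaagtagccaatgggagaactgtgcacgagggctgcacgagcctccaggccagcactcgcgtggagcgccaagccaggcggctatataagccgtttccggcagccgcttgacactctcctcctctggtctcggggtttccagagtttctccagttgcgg
Lingo3, chr10:80843990-80844289, minus strand: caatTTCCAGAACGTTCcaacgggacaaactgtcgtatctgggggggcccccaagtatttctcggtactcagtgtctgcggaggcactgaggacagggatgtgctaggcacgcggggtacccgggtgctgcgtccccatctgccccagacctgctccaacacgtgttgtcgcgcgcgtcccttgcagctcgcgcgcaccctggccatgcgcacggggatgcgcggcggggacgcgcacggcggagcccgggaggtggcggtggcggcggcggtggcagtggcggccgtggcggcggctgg
Sdhb, chr4:140961021-140961320, plus strand: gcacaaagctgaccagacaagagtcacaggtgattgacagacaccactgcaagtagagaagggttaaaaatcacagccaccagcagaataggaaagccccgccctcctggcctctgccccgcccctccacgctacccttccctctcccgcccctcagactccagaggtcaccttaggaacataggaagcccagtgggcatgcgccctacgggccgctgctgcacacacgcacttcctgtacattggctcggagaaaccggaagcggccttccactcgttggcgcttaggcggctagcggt
Pno1, chr11:17211540-17211839, minus strand: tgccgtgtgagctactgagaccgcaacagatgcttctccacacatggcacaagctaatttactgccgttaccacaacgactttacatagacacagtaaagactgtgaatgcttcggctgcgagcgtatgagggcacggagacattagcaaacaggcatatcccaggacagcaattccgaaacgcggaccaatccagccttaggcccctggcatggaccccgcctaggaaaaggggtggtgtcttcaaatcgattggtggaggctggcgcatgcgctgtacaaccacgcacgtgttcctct
The marked match begins 89 bases before the start in Hspe1 and 246 bases before it in Lingo3, a gene for a membrane protein of the nervous system. In Hsph1 it begins 15 bases after the start. The closest stretch differed from the motif at 2 of the 9 fixed letters in Sdhb, and at 3 in both Txnip and Pno1. No match says only that these letters are not in this window.

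HSF1 peak numbers were 10399 and 10633 in the KO libraries, against 12644 and 14583 in the WT libraries. Both KO lists were shorter than both WT lists, with means of 10516 ± 165 in KO and 13614 ± 1371 in WT (SD, n = 2 each). The log2 ratio of KO over WT was -0.37, and the two-sided exact permutation test over libraries gave p = 0.333, the smallest p that 2 against 2 allows. The direction rests on which WT pair is used: the first WT pair at 40 min of cold had 2287 and 1670 peaks, and the log2 ratio of KO over that pair was 2.43. Read depth is unknown for all lists, so a longer list and more binding cannot be told apart. The median fold enrichment of a peak, the authors' ratio of signal at the summit to local background, was 5.99 and 5.53 in the KO lists and 5.43 and 5.15 in the WT lists. Near a gene end, meaning a summit at most 1000 bp from the first or last base of any protein-coding gene, lay 23.6% and 25.4% of KO peaks against 26.4% and 25.6% of WT peaks. The difference was -1.52 percentage points (exact permutation p = 0.333, n = 2 each) and took the opposite sign, 1.65, when each list was cut to its 10399 strongest peaks. Of the tissue's defining thermogenic markers, 3 of 28 genes (10.7%) had a peak near an end in all 4 libraries. So did 1 of 16 skeletal muscle (6.25%), 2 of 13 endothelial (15.4%) and 0 of 14 leukocyte markers. Of all protein-coding genes 8.59% did, and these counts do not measure the share of any cell type. In whole tissue, fewer cells of a type and less binding per cell cannot be told apart.

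**Figure D1:**
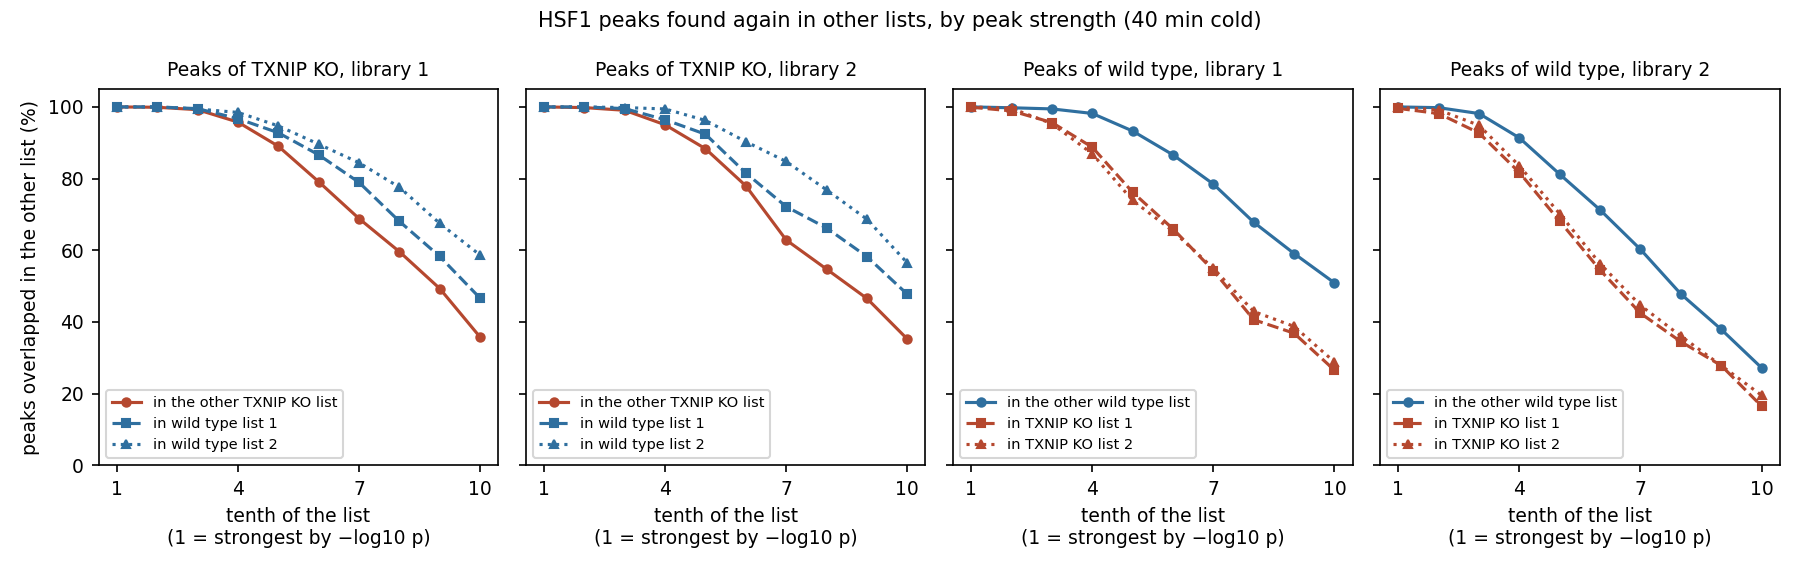
Peaks of each library were split into 10 parts by −log10 p (x axis, 1 is the strongest part), and the y axis gives the percent of peaks in a part that a peak of another list overlapped. Red lines are overlaps with KO lists and blue lines overlaps with WT lists. In the strongest part nearly all peaks were found in every list, and in the weakest part of the first KO list 35.8% were found in the other KO list against 46.6% and 58.7% in the WT lists.

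The strong part of the HSF1 cistrome was common to both genotypes. In the strongest of 10 equal parts of each list, 99.6% to 100% of the peaks were overlapped in each of the other 3 lists. The weakest part differed from it. Of the weakest peaks of KO replicate 1, 35.8% were overlapped in KO replicate 2, and 46.6% and 58.7% in the WT lists. Of those of KO replicate 2, 35.2% were overlapped in KO replicate 1, and 47.7% and 56.5% in the WT lists. A weak KO peak was thus found more often in either WT list than in the other, shorter KO list. Of the weakest peaks of WT replicate 1, 26.6% and 28.9% were overlapped in the KO lists and 50.9% in WT replicate 2. Of those of WT replicate 2, 16.5% and 19.5% were overlapped in the KO lists and 27.2% in WT replicate 1.

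Of the 18147 regions, 199 (1.1%) were KO only, 1335 (7.36%) were WT only and 7131 (39.3%) were shared. The other 9482 regions had any other mix of libraries, among them 1409 in 1 KO library alone and 4068 in 1 WT library alone. KO only regions were weak, with median folds of 4.19 and 3.75 in the KO lists, and 93.0% and 94.0% of them stood below the middle of their list by −log10 p. WT only regions were weak too, with median folds of 4.18 and 4.12 in the WT lists and 84.8% and 80.2% below the middle. Shared regions had median folds of 7.94 and 7.51 in KO and 8.49 and 8.99 in WT. The surplus of WT only regions was smaller in lists of equal length. With each list cut to its 10399 strongest peaks, 517 regions were KO only and 599 WT only, and with the 5000 strongest peaks 170 were KO only and 202 WT only. With the first WT pair in place of the second, 5630 regions were KO only and 1 was WT only. With 1 library of a group left out, KO only regions numbered 383 to 917 and WT only regions 2241 to 4020.

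**Figure D2:**
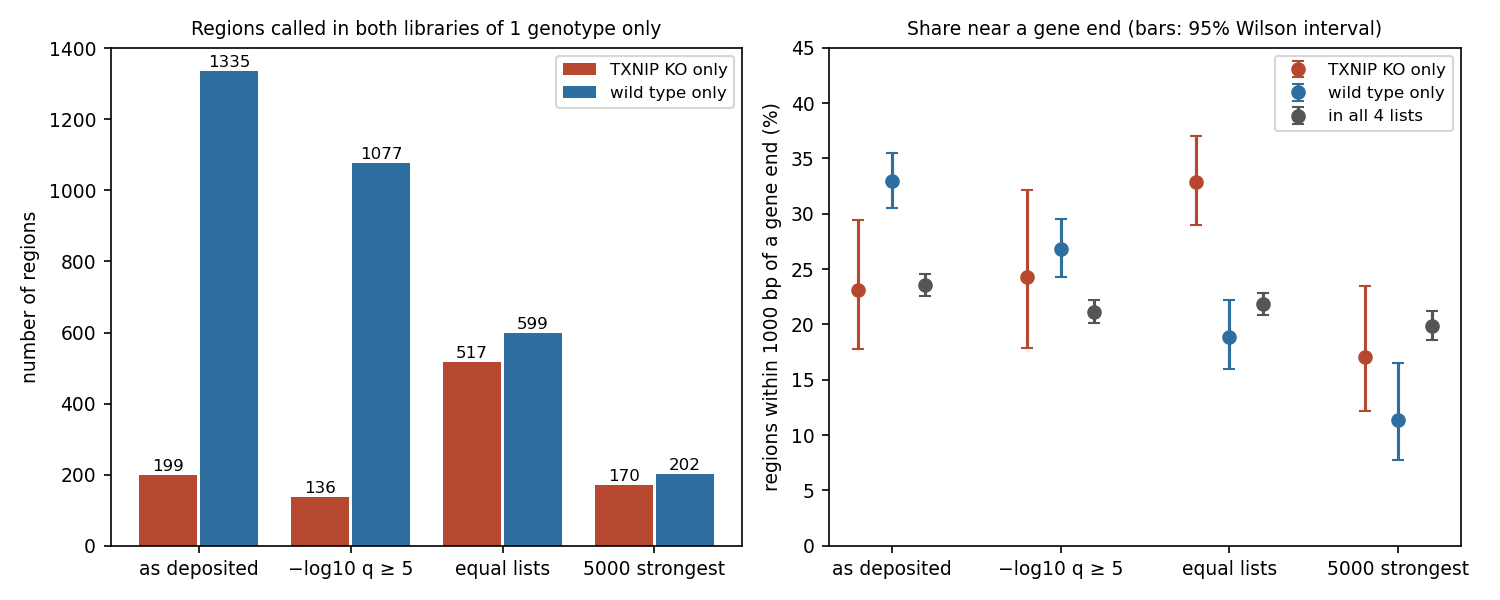
Left, the number of regions called in both libraries of 1 genotype and in neither of the other (y axis) for all deposited peaks, for peaks with −log10 q of at least 5, for lists of equal length and for the 5000 strongest peaks of each list. Right, the percent of regions near a gene end, with 95% Wilson intervals. The WT only surplus of 1335 against 199 shrank to 599 against 517 in lists of equal length, and there the share near a gene end was 32.9% in KO only and 18.9% in WT only regions.

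WT only regions lay near gene ends more often than KO only regions in the full lists, and less often in lists of equal length. In the full lists 23.1% of KO only regions (95% Wilson interval 17.8 to 29.4), 33.0% of WT only regions (30.5 to 35.5) and 23.6% of shared regions (22.6 to 24.6) were near a gene end. These intervals cover counting error only, and regions are not replicates. The weak end of every list held more sites near gene ends. In the weakest of 4 equal parts of the regions of WT replicate 1, 43.8% of WT only and 41.2% of shared regions were near a gene end, and in that of WT replicate 2 the shares were 47.9% and 45.9%. In that part of KO replicate 1, 33.6% of KO only and 44.0% of shared regions were, and in KO replicate 2 28.0% and 38.1%. In lists of equal length the shares were 32.9% in KO only, 18.9% in WT only and 21.8% in shared regions.

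Among the 6 other peak lists of the series, which did not enter the rule, the classes of 1 genotype were nearly absent. A peak in at least 1 of these lists (WT at room temperature, the first WT pair at 40 min and WT at 4 h of cold) was found for 1 KO only region, 5 WT only regions and 2467 shared regions, or 34.6% of the shared ones. These other lists are short, with 123 to 2287 peaks. Sites gained in the cold in the first WT pair were bound in both genotypes. Of 409 regions called in the first WT pair at 40 min and not at room temperature, 408 were shared and none was KO only or WT only. Of 756 sites called both at room temperature and in the first pair, 755 were overlapped, by 742 merged regions, all of which were shared.

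Of the 6 leading shared regions 5 lay at genes of chaperones or their cofactors, and the other lay at Uspl1. The strongest, between Hspd1 and Hspe1 (chr1:55085844-55090900), which encode the mitochondrial chaperonin and its cofactor, had folds of 1148 and 1109 in KO and 1296 and 1210 in WT. It ranked first in each of the 4 lists. The region at Uspl1, a SUMO protease gene (chr5:149183221-149185399), had folds of 626 and 619 in KO and 778 and 802 in WT. Hsp90ab1, a cytosolic HSP90, had 625 and 591 in KO and 763 and 771 in WT, and Dnaja1, an HSP40, had 561 and 542 in KO and 699 and 670 in WT. St13, a cofactor of HSP70, had 510 and 538 in KO and 632 and 623 in WT. Hspa8, the constitutive HSP70, had 503 and 539 in KO and 651 and 625 in WT. At each of these 6 regions both KO folds lay below both WT folds. A fold depends on each library's depth and background, so it was not tested as a level between libraries.

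Across the 1880 genes with a peak near an end in all 4 libraries, both KO folds lay below both WT folds in 716 (38.1%) and above them in 208 (11.1%). Of 28 such genes of heat shock chaperones and co-chaperones, 21 had the lower folds in KO, none the higher, and 7 overlapped, with Hspa1a and Hspa1l counted from the same peak. The 38.1% covers genes of all strengths, and strong regions of any kind had lower median folds in KO. In the strongest of 4 equal parts of the shared regions, median folds were 26.8 and 25.3 in KO and 29.8 and 31.9 in WT. In the weakest part they were 4.56 and 4.35 in KO and 4.58 and 4.73 in WT. Hsp90aa1, the stress-inducible HSP90, had folds of 511 and 476 in KO against 555 and 554 in WT, and Hsph1 had 443 and 402 in KO against 509 and 530 in WT. Dnajb1, an HSP40 that recruits HSP70, had 185 and 182 in KO against 206 and 201 in WT, and Bag3, an HSP70 cofactor that steers clients to autophagy, had 214 and 179 in KO against 231 and 255 in WT. KO folds were the lower ones for these genes, without overlap. Hspa4, an HSP110 protein, had 46.8 and 39.4 in KO and 34.2 and 42.2 in WT, and Chordc1, a partner of HSP90, had 273 and 272 in KO and 278 and 264 in WT. These overlapped between the genotypes, as did Bag1, Dnajb6, Hspa4l, Hspb8 and Hspbp1. Hspa1a had 383 and 340 in KO and 424 and 453 in WT, and Hspa1b had 450 and 448 in KO and 488 and 547 in WT. These inducible HSP70 genes are nearly identical in sequence, and reads could be split between them in an uncertain way.

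Of 21887 protein-coding genes, 1880 (8.59%) had a peak near an end in all 4 libraries, 59 (0.27%) in both KO libraries and neither WT library, and 496 (2.27%) in both WT libraries and neither KO library. A gene can change class without its region doing so, where the summit falls on the other side of 1000 bp: 49 of the 59 KO only genes and 477 of the 496 WT only genes lay near a region of their own class. In lists of equal length there were 203 KO only and 126 WT only genes, so the larger number in WT did not hold there. Gene lists are therefore given as counts beside these background shares.

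**Figure D3:**
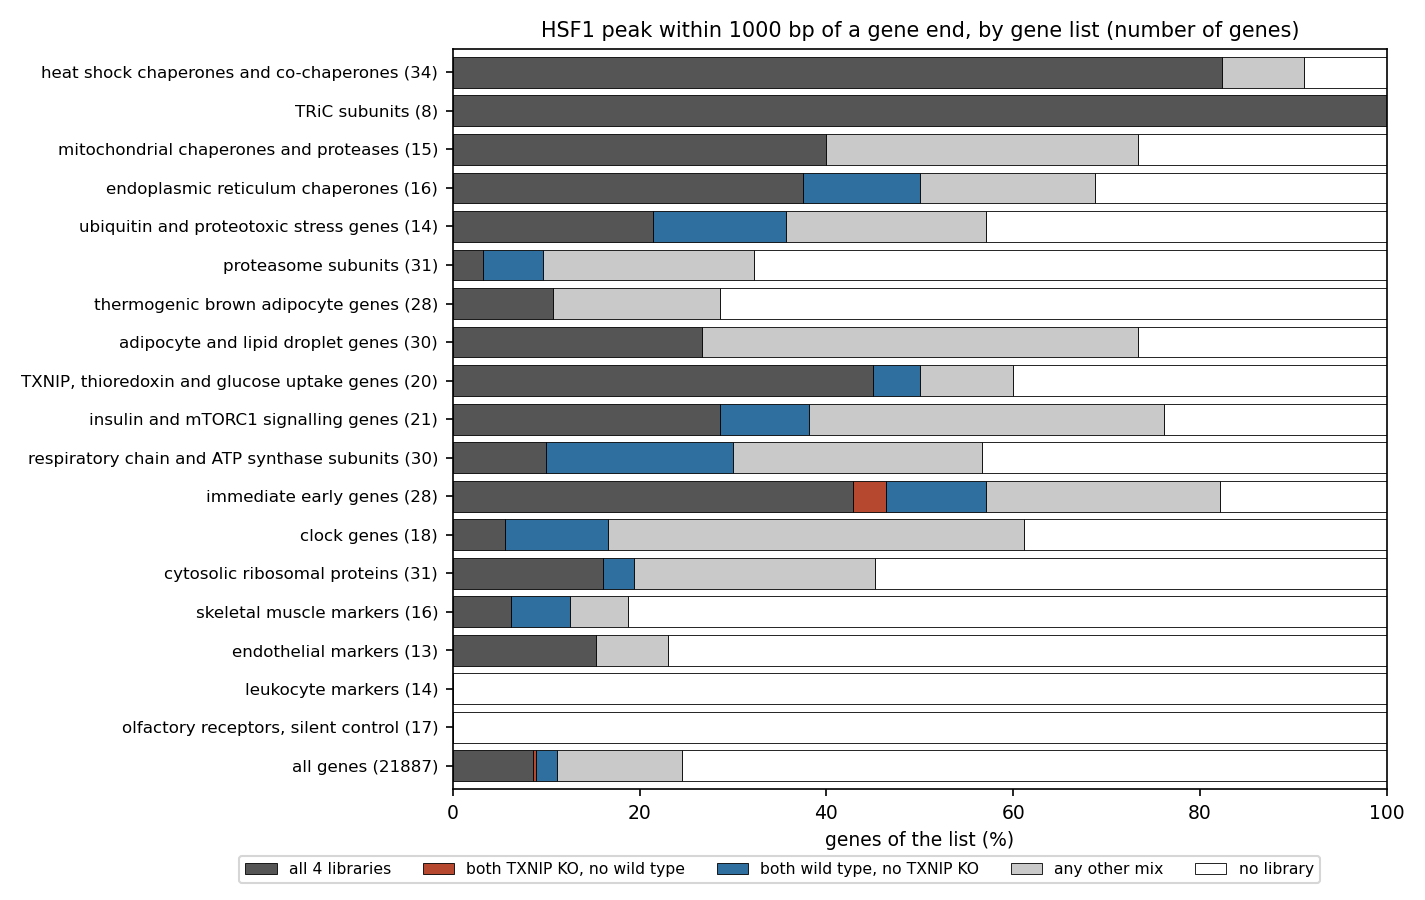
For each gene list, with its number of genes in parentheses, the bar gives the percent of genes (x axis) with a peak near an end in all 4 libraries, in both KO and no WT library, in both WT and no KO library, in any other mix of libraries, or in none. Chaperones and TRiC subunits were bound in all 4 libraries in 28 of 34 and 8 of 8 genes, and of all genes 8.59% were.

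Heat shock chaperone and TRiC genes were bound in both genotypes. Of 34 heat shock chaperones and co-chaperones, 28 had a peak near an end in all 4 libraries (82.4%, against 8.59% of all genes) and none was KO only or WT only. Of the other 6, Dnaja2 had peaks in KO replicate 1 and both WT libraries (4.99 in KO, 5.77 and 5.49 in WT), Hspa2 in both KO libraries and WT replicate 1 (4.77 and 3.56 in KO, 4.96 in WT), Dnajc7 in KO replicate 2 alone (3.16), and 3 in none. Hspb1, a small heat shock protein, had folds of 313 and 291 in KO and 387 and 426 in WT, and Stip1, which links HSP70 to HSP90, had 365 and 344 in KO and 408 and 436 in WT. The TRiC chaperonin of the cytosol, which folds actin and tubulin, had all 8 subunits bound in every library, from Cct2 (35.8 and 30.1 in KO, 39.8 and 42.5 in WT) to Cct7 (284 and 249 in KO, 309 and 335 in WT). Of 15 mitochondrial chaperones and proteases 6 were bound in all 4, among them Hspa9, the mitochondrial HSP70, with 84.4 and 81.4 in KO and 83.0 and 90.8 in WT. These Hspa9 folds overlapped between the genotypes.

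Endoplasmic reticulum chaperones were bound in all 4 libraries in 6 of 16 genes, with Hsp90b1, their HSP90, at 96.5 and 79.4 in KO and 108 and 104 in WT. Manf, a secreted factor of the unfolded protein response, and Pdia4, a disulfide isomerase, were WT only, at folds of 4.18 and 5.49 and of 3.30 and 3.53 in WT. Among 14 ubiquitin and proteotoxic stress genes 3 were bound in all 4, including the polyubiquitin gene Ubb (186 and 175 in KO, 215 and 218 in WT). Sesn2, a stress-inducible inhibitor of mTORC1, and Vcp, a segregase of ubiquitinated proteins, were WT only, with 4.18 and 3.42 and with 2.99 and 2.74 in WT. Of 31 proteasome subunits 1 was bound in all 4, and Psma6 (6.01 and 4.80 in WT) and Psma7 (3.58 and 3.38 in WT) were WT only. All of these WT only peaks were weak next to the chaperone peaks of the same lists. Of all genes 8.59% were bound in all 4 libraries and 2.27% were WT only.

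Respiratory chain and ATP synthase subunits had the largest share of WT only genes of the 18 lists, 6 of 30 (20%, against 2.27% of all genes), with 3 bound in all 4 libraries. The WT only members were Ndufa4 (4.58 and 4.29 in WT), Ndufs3 of complex I (4.58 and 4.63), Sdha and Sdhb of complex II (3.38 and 3.99, and 4.58 and 5.32), Uqcrfs1, the Rieske protein of complex III (3.78 and 3.77), and Atp5a1 of the ATP synthase (3.98 and 2.92). Each of their regions had its summit within 472 bp of the nearest gene end, which for Ndufa4 and Atp5a1 was that of a neighbouring gene, and the KO lists had no peak over it. Ndufs3 had a KO replicate 2 peak 1090 bp from its end (fold 5.93), just outside the limit. Of the genes bound in all 4, Atp5b, the ATP synthase beta subunit, had 7.68 and 6.91 in KO and 5.97 and 5.83 in WT, without overlap. Cycs, cytochrome c, had 7.39 and 5.32 in KO and 7.81 and 7.70 in WT.

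The respiratory count depended on how weak a peak was admitted. In lists of equal length 3 of these genes stayed WT only (Ndufa4, Ndufs3 and Sdhb), and with the 5000 strongest peaks none did, while Atp5b was KO only. With 1 library left out, 6 to 8 genes were WT only, and without KO replicate 1 Ndufv1 and Uqcrc2 were KO only. Of the 30 subunits, 4 (13.3%) were bound in both KO libraries and 10 (33.3%) in both WT libraries, whatever the other genotype showed. Of all genes, 9.69% were bound in both KO libraries and 13.6% in both WT libraries.

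Immediate early genes, which cAMP and stress signalling switch on within minutes, were bound in all 4 libraries in 12 of 28 cases (42.9%, against 8.59% of all genes). Jun, an AP-1 subunit, had folds of 92.9 and 84.2 in KO and 88.4 and 101 in WT, which overlapped. Fos, its partner, had 13.3 and 12.2 in KO and 9.76 and 10.3 in WT, and Nr4a1, an orphan nuclear receptor induced by noradrenaline in fat, had 7.68 and 5.73 in KO and 4.33 and 4.13 in WT. Of the 12, both KO folds lay above both WT folds in 3 (Fos, Nr4a1 and Ier2) and below them in 2. These are 25% and 16.7%, against 11.1% and 38.1% of the 1880 genes bound in all 4 libraries. The 2 with lower KO folds were Jund, another AP-1 subunit (7.75 and 10.0 in KO, 12.1 and 12.9 in WT), and Dusp1, a MAP kinase phosphatase (5.39 and 5.33 in KO, 5.97 and 9.43 in WT). The Dusp1 peak of KO replicate 1 lay at the other end of the gene from the rest. Fosb (4.18 and 3.60 in WT), Klf4 (3.94 and 3.98) and Klf6 (3.78 and 3.08) were WT only (10.7% of the list, against 2.27% of all genes). The Klf6 peaks of the WT libraries lay at opposite ends of the gene, and in lists of equal length only Klf4 stayed WT only. Dusp6, a phosphatase that switches off ERK, was the KO only member of the lists, through summits of 7.68 and 5.73 in KO. The region that holds it was shared, with WT folds of 7.57 and 9.78 at summits farther than 1000 bp from the gene.

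Genes of TXNIP biology and glucose uptake were bound in all 4 libraries in 9 of 20 cases (45%, against 8.59% of all genes). Txnip itself had a peak near an end in every library, with folds of 9.96 and 10.996 in KO and 12.9 and 13.9 in WT (chr3:96556886-96560919). A second shared region at the opposite end of the gene had 9.54 and 10.1 in KO and 10.8 and 13.2 in WT. Peaks covered 82.7% and 49.8% of the gene's length in the KO libraries and 63.7% and 76.3% in the WT libraries. HSF1 signal over the gene was therefore called in libraries labelled TXNIP KO, and since the labels do not say which part of the gene is deleted, this checks nothing about the allele. Within 10 Mb of Txnip, 3 of 220 regions were KO only and 16 WT only (7.27%, against 7.29% on the other chromosomes).

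Among relatives of TXNIP, Arrdc4 had 26.4 and 19.96 in KO and 25.1 and 25.4 in WT, and Arrdc3 had a peak of 4.46 in WT replicate 2 alone. Slc2a4, the insulin-responsive glucose transporter, had weak peaks near an end (4.23 and 4.94 in KO, 4.46 and 4.36 in WT) and a stronger one inside the gene (26.8 and 25.9 in KO, 37.2 and 37.4 in WT). At the inner Slc2a4 peak both KO folds lay below both WT folds. Slc2a1, the basal glucose transporter, had no peak near an end, inside or within 5000 bp in any of the 4 libraries. Txnrd2, the mitochondrial thioredoxin reductase, was WT only (4.26 and 3.45 in WT), as 5% of the list and 2.27% of all genes were. Txn2, the mitochondrial thioredoxin, was bound in all 4 (14.3 and 18.2 in KO, 11.6 and 17.8 in WT).

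Of 21 insulin and mTORC1 signalling genes 6 were bound in all 4 libraries (28.6%, against 8.59% of all genes). Among them was Castor1, an arginine sensor of mTORC1 (86.9 and 79.6 in KO, 113 and 144 in WT). Rheb, the activator of mTORC1, was WT only (3.23 and 4.65 in WT). In lists of other classes, Per3 and Rora among 18 clock genes (11.1%), Rpl30 among 31 ribosomal proteins (3.23%) and Tnnt3 among 16 skeletal muscle markers (6.25%) were WT only, against 2.27% of all genes. None of these genes was WT only among peaks with −log10 q of at least 5 or in lists of equal length. No leukocyte marker and none of 17 olfactory receptors, a silent control, had a peak near an end in any of the 4 libraries.

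Of the 28 thermogenic genes 20 had no peak near an end in any of the 4 libraries (71.4%, against 75.4% of all genes). Of the adipocyte genes several had strong ones. Ucp1, the uncoupling protein, had no peak within 1000 bp, and one within 5000 bp with folds of 8.51 and 7.11 in KO and 7.37 and 6.14 in WT. Ppargc1a, the coactivator of mitochondrial biogenesis, had a peak inside the gene with 56.2 and 65.0 in KO and 69.7 and 72.9 in WT. Dio2, which makes active thyroid hormone, had no peak inside the gene or within 5000 bp. Pparg, the nuclear receptor of fat cells, had a peak near an end in KO replicate 2 (4.94) and in WT replicate 1 (4.58), and Cebpa in KO replicate 2 alone (3.95). Of 28 thermogenic genes 3 were bound in all 4 libraries (10.7%, against 8.59% of all genes) and none was KO only or WT only. Of 30 adipocyte and lipid droplet genes 8 were bound in all 4 (26.7%) and none was KO only or WT only. The highest folds were at Plin2, a coat protein of lipid droplets, with 50.04 and 41.3 in KO and 46.6 and 39.8 in WT, which overlapped. Cidec, which fuses lipid droplets, had 27.0 and 25.1 in KO against 16.1 and 18.9 in WT, and Pck1, an enzyme of glycerol synthesis in fat, had 16.4 and 21.1 in KO against 15.1 and 14.6 in WT. For Cidec and Pck1 the KO folds lay above the WT folds without overlap (25% of the 8 genes). For Mgll, a lipase, they lay below (5.81 and 5.14 in KO, 5.93 and 5.83 in WT), and the other 5 of the 8 overlapped. Of the 1880 genes bound in all 4 libraries, KO folds lay above in 11.1%, lay below in 38.1% and overlapped in 50.9%.

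KO only regions close to genes were weak even where they stood highest in the KO lists. The leading one, at Zfp563, a zinc finger gene, had folds of 5.39 and 4.74 in KO (chr17:33089495-33090045), and Trappc6b, part of a vesicle tethering complex, had 4.77 and 4.54. Lgals7, a galectin of epithelia, had 9.54 and 4.15. Pno1, a factor of small ribosomal subunit assembly, and Wdr92, which adjoin, had a region in common with 4.04 and 4.37. Next came Marchf3 (4.57 and 3.69), AI597479 with Tgfbrap1 (3.88 and 3.94), Idh3a, a subunit of mitochondrial isocitrate dehydrogenase, with Acsbg1 (4.36 and 3.95), and Wdr61 (5.39 and 3.95). Pdlim5, H4c3, Asxl2 and Tspan15 completed the 12, with folds of 3.49 to 4.15. The leading KO only regions away from gene ends were inside Ppfibp1 (8.51 and 8.75), 40374 bp from C9orf72 (6.34 and 6.15), 70994 bp from Pdcl3 (6.22 and 6.52), inside Ksr1 (6.64 and 5.93), 3309 bp from Car12 (6.22 and 6.72) and inside Oxr1 (6.02 and 6.91). None of these 18 regions had a peak in any of the 6 other lists of the series.

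Of the regions above the middle of both lists of a genotype, 5 of 4420 (0.113%) were KO only for KO and 130 of 5655 (2.30%) were WT only for WT. The middle is that of lists of different length, so these shares are not comparable between the genotypes, and among the 5000 strongest peaks of each list 170 regions were KO only and 202 WT only. The leading WT only regions lay away from gene ends: inside Mgmt, a DNA repair gene, with WT folds of 11.9 and 13.8 (chr7:136974774-136975671), 142438 bp from Csnk1g3 (13.7 and 12.2), and 1838019 bp from Pik3c3 (10.6 and 24.7). Further ones lay 34882 bp from BC107364 (11.1 and 11.1), inside A830018L16Rik (10.2 and 10.8) and inside Lrmda (8.61 and 10.2). The BC107364 region (chr3:96488956-96489491) lay 68466 bp from Txnip. The Csnk1g3 region also had a peak in 1 library of the first WT pair (fold 5.56), and the other 5 had none in the 6 other lists.

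The leading WT only regions close to genes were those of Abra, an actin-binding activator of SRF (6.37 and 6.69 in WT), Pcdh1, a protocadherin (6.77 and 6.003), Phgdh, the first enzyme of serine synthesis (7.17 and 6.003), and Ephb4, a receptor tyrosine kinase (6.36 and 5.99). Gcnt7 (4.89 and 5.16), Sh3rf2 (5.00 and 7.76), Atp2b4, a plasma membrane calcium pump (4.98 and 5.66), and Cyct, the testis form of cytochrome c (7.17 and 5.15), followed. Magi3 (4.98 and 5.32), Sod3, the extracellular superoxide dismutase (6.77 and 5.15), Mapkapk5 (4.98 and 6.69) and Smim38 (4.98 and 6.003) completed the 12. None of the 12 had a peak in the 6 other lists. The 12 were taken as the highest by −log10 p, so folds above the median of WT only regions follow largely from that choice. None of their WT folds reached 10.

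**Figure D4:**
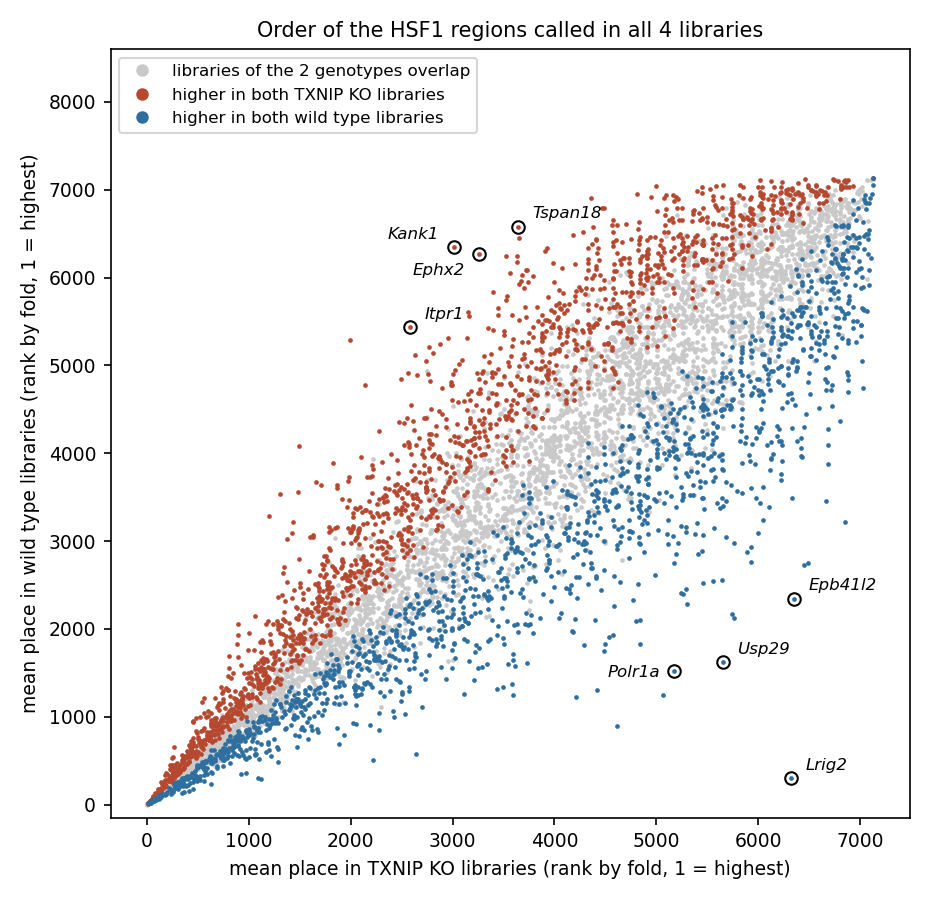
Each point is 1 of the 7131 shared regions, placed by its mean rank by fold in the KO libraries (x axis) and in the WT libraries (y axis), where 1 is the highest fold. Red points had both KO ranks ahead of both WT ranks and blue points the reverse. The Lrig2 region, whose KO and WT summits lie 680 bp apart, stands off at the lower right.

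Since all 4 libraries hold the 7131 shared regions, their order by fold can be compared without the effect of list length. Both KO ranks were ahead of both WT ranks in 1705 regions (23.9%), and both WT ranks ahead of both KO ranks in 1539 (21.6%). Across these regions, which are not independent, the rank correlation was 0.90 between the KO libraries, 0.93 between the WT libraries and 0.87 to 0.90 between libraries of different genotype. The value between the KO libraries and the highest value between genotypes were the same to 2 decimals. In 4697 of the shared regions all 4 summits lay within 100 bp, and of these 1168 (24.9%) were ahead in KO and 1087 (23.1%) in WT. Gaps of more than 1000 ranks were found in 174 regions in favour of KO and in 206 in favour of WT. Among shared regions above the middle by mean rank, those near a gene end were ahead in KO in 31.2% and in WT in 19.9% of 699 cases. Below the middle the near regions were ahead in KO in 20.6% and in WT in 20.4% of 982 cases. Above the middle and beyond 50 kb from any gene, regions were ahead in KO in 21.6% and in WT in 29.6% of 399 cases. The 408 shared regions among the cold-gained sites of the first WT pair were ahead in KO in 20.3% and in WT in 32.4%. The 742 at sites called both at room temperature and in the first pair were ahead in KO in 27.2% and in WT in 23.5%.

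The widest gap in rank within a merged region was near Lrig2, a gene for a regulator of growth factor receptors. The region chr3:104431017-104432698, 21979 bp from Lrig2, had peak folds of 4.77 and 3.75 in KO against 67.3 and 65.9 in WT. These folds are not of the same point: the KO summits lay at 104431320 and 104431240 and the WT summits at 104432000 and 104432001, so the nearest of them were 680 bp apart. The region counts as shared through overlap of the peaks, and neither KO list had a summit at the strong WT site. Its peaks stood at 68.4% and 84.9% of the way down the KO lists by −log10 p and at 2.26% and 2.35% of the way down the WT lists. It was also called in both libraries of the first WT pair (17.2 and 15.0) and in both at room temperature (14.1 and 11.9), and in neither at 4 h of cold. There it stood 13.2% to 18.98% of the way down these 4 lists. The region lay 7869160 bp from Txnip on the same chromosome, and among the 88 shared regions within 10 Mb of Txnip 15 were ahead in KO and 15 in WT.

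At the other 7 regions far ahead in WT all 4 summits lay within 99 bp. They were inside Epb41l2 (4.41 and 3.95 in KO, 12.8 and 13.1 in WT) and inside Usp29 (4.77 and 5.14 in KO, 21.5 and 15.8 in WT). The region 11839 bp from Polr1a, the large subunit of RNA polymerase I, had 5.39 and 5.53 in KO and 16.3 and 22.8 in WT. Regions inside Gmpr and near Opa1, Actl7b and Ints10 completed these 7, with KO folds of 3.32 to 5.20 and WT folds of 9.09 to 15.1. Shared regions far ahead in KO lay 2008 bp from Ephx2, an epoxide hydrolase of lipid signalling (8.30 and 8.49 in KO, 4.38 and 4.80 in WT), and inside Itpr1, a calcium channel of the endoplasmic reticulum (10.8 and 9.88 in KO, 5.25 and 5.92 in WT). Kank1 had 8.39 and 9.84 in KO and 3.78 and 5.15 in WT. Tecr, an enzyme of fatty acid elongation, was the one near a gene end among these, with 13.1 and 11.3 in KO and 6.67 and 6.30 in WT. Tspan18, Trib1, Psen2 and Fblim1 followed, with KO folds of 6.03 to 7.90 and WT folds of 3.38 to 4.97. Of these 8, the summits spread over more than 100 bp at Itpr1 (127 bp), Tspan18 (202 bp) and Psen2 (705 bp). The gaps ahead in WT were the larger ones in fold terms, and all of these regions were called in every library.

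By gene list, the order of shared regions was ahead in KO more often than in WT for several groups. All regions counted here lay near a gene end, where 25.0% of shared regions were ahead in KO and 20.2% in WT. Above the middle by mean rank these shares were 31.2% and 19.9%. Of 13 regions at immediate early genes 7 were ahead in KO and 2 in WT (53.8% and 15.4%, against 23.9% and 21.6% of all shared regions). Of 10 at adipocyte and lipid droplet genes 4 were ahead in KO and none in WT. Of 28 at chaperone genes 8 were ahead in KO and 3 in WT (28.6% and 10.7%), and of 8 at TRiC genes 3 and none. Chaperone regions stand at the top of every list, with a median rank of 31.25 in KO and 35 in WT of 7131. A place gives the order within a library and not the level of a fold. Of 10 regions at TXNIP, thioredoxin and glucose uptake genes none was ahead in KO and 2 were in WT. These are counts of few regions without a test.

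Heat shock element letters were concentrated in promoters under strong shared regions. The motif of the printed windows (TTC, GAA and TTC with any 2 letters between, read on both strands) was present with all 9 fixed letters in 0.517% of 21263 RefSeq promoter windows. It was present in 0 of 34 windows touched by a KO only region, which allows a share of up to 8.82%, in 1 of 450 touched by a WT only region (0.222%, 95% Wilson interval 0.0392 to 1.25) and in 43 of 1956 touched by a shared region (2.198%, 1.64 to 2.95). In the strongest of 4 equal parts of the shared regions it was present in 28 of 477 windows (5.87%), and in the weakest part in 3 of 705 (0.426%). With 1 letter off, 0 of 34 KO only, 3.78% of WT only and 11.7% of shared windows held it, against 6.57% of all windows. The 1 WT only match is the Lingo3 window printed above, where the region had WT folds of 4.58 and 3.60. Among the windows with 1 letter off was that of Psma6. Of windows with no region, 6.30% held it with 1 letter off, which lies above the interval for WT only windows (2.37 to 5.97) and below the share that 0 of 34 KO only windows allows. The promoter table used has no windows on chromosome 18.

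**Figure D5:**
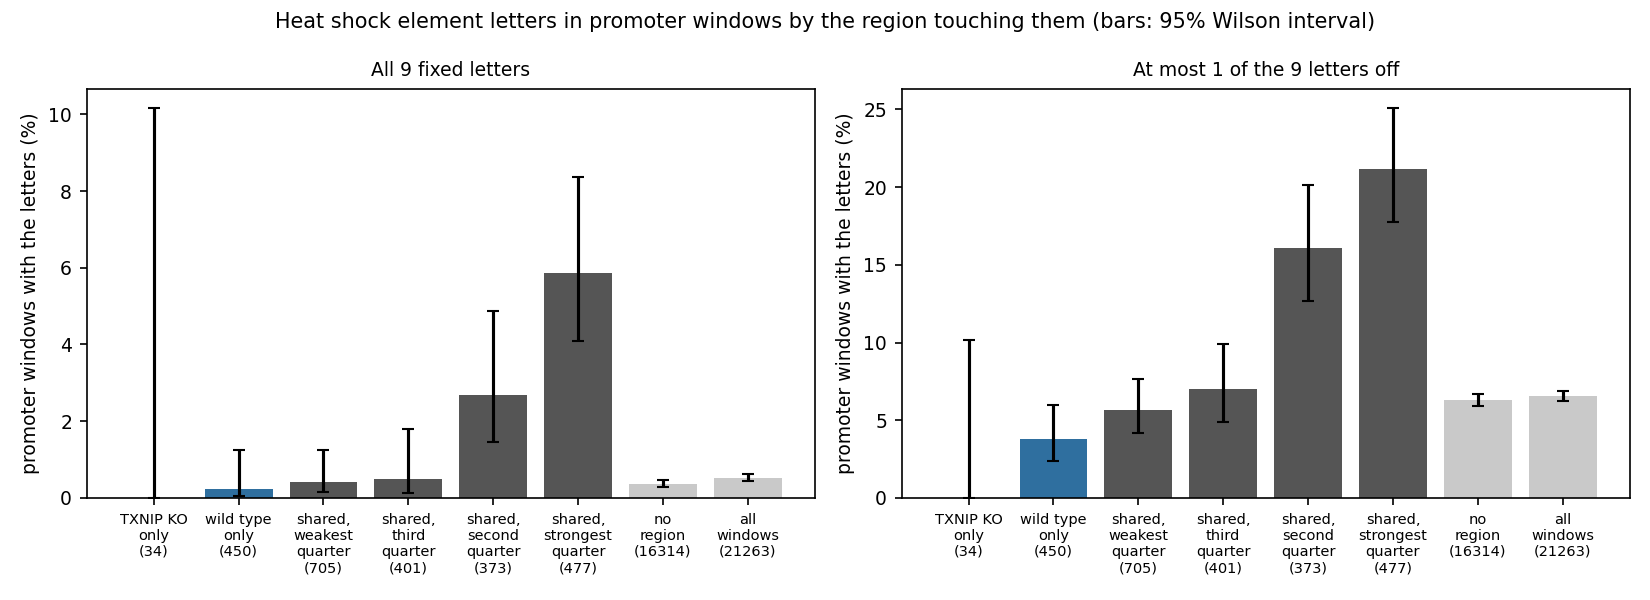
Percent of promoter windows (y axis, bars with 95% Wilson intervals) that hold the heat shock element letters, with all 9 fixed letters on the left and at most 1 letter off on the right, by the class of region that touches the window (x axis, number of windows in parentheses). Windows under the strongest of 4 parts of the shared regions stand highest, at 5.87% and 21.2%. Windows under the weakest part are at 0.426% and 5.67%, and windows under WT only regions are at 0.222% and 3.78%.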

How the data were processed

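The submitters' processing notes name MACS2 2.2.7.1, deepTools 3.4.3, BWA 0.7.17, SAMtools and Trim Galore 0.6.0, and the build GRCm38.p6. The sources used here do not give filters, the treatment of duplicates or the input behind each list. The authors deposited 1 list of narrow peaks per library, with no pooling of replicates. Per peak, the deposited columns hold fold enrichment as a linear ratio and −log10 values of p and q, with a smallest −log10 q of 1.32 to 1.44 in the 4 lists. The lists hold no counts, so depth is unknown. Folds and −log10 p values are the authors' own for each peak and were used within a list to rank, describe and filter its peaks, and folds of different libraries stand side by side without a test. A file score column and the 5 input samples, 1 of which could not be placed in a group, were not used here.

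Chromosomes 1 to 19, X and Y were kept, and peaks with equal start and end were counted once. Coordinates count from 1. A RefSeq table of GRCm38.p6 without strand gave 21887 protein-coding genes, so distance to either gene end replaced distance to a start. Of 384 listed symbols, 384 matched. Promoter windows of 300 bases came from RefSeq. Of 17492 genes with a window, several have more than 1, which gave 21263 windows. The motif search read both strands, and a window with matches on both counted once. Analysis used Python 3.11.15, numpy 2.4.6, pandas 2.3.3, scipy 1.17.1 and matplotlib 3.10.9, and the merging and classes were tested on simulated lists. The only tests were two-sided exact permutation tests over libraries, and Wilson 95% intervals cover counting error only. The members, gene lists and tests were chosen with earlier results of these data known.

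The rule for named genes took 21 set genes, up to 12 genes near and 6 regions away from gene ends for each class of 1 genotype, the 8 shared regions per direction with the widest gap between the nearest KO and WT ranks, list members of 1 genotype only, and the 6 leading shared regions. Other list members were named as examples after their values were seen. One gene that the rule names is not reported here. Alternatives were other −log10 q limits, equal lists, the 5000 strongest peaks, summits within 100 bp, an overlap of 50%, other WT groups, 5000 bp from a gene end, the starts of the promoter table (added after seeing the data), shared regions with close summits (likewise added) and leaving out each library.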

Additional observations from a re-analysis of the deposited data

Results flagged for a closer look

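The number of HSF1 peaks stood on opposite sides of the WT pairs. Against the first WT pair at 40 min of cold the log2 ratio of KO over WT was 2.43, with 10399 and 10633 peaks in the KO libraries and 2287 and 1670 in that pair. Against the second WT pair, with 12644 and 14583 peaks, it was -0.37. Every KO list was longer than every list of the first pair and shorter than every list of the second, and the difference between these contrasts was not tested. The leading region between Hspd1 and Hspe1 had folds of 1148 and 1109 in KO, 400 and 328 in the first WT pair and 1296 and 1210 in the second.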

How the results depend on the processing

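Presence of a peak is a threshold call, and depth limits it in a way that the lists do not show. The KO over WT log2 ratio of peak number took the opposite sign against the first WT pair (2.43). The KO minus WT difference in peaks near a gene end did so in equal lists (1.65 percentage points). In equal lists 517 regions were KO only and 599 WT only, with 203 and 126 genes. With the 5000 strongest peaks, WT only regions numbered 202 and shared ones 3724, with 34 KO only and 24 WT only genes. Summits within 100 bp gave 320 KO only regions. The first WT pair gave 5630 KO only, 1 WT only and 1463 shared regions, with 1552 KO only and 1 WT only genes. All 4 WT libraries together gave 0 WT only and 1460 shared regions and 0 WT only genes, so no share near a gene end could be had for WT only. A −log10 q of at least 5 gave 329 WT only genes.

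The share of regions near a gene end moved as follows. In KO only regions it was 32.9% in equal lists, 17.1% with the 5000 strongest peaks, 33.4% with summits within 100 bp and 37.7% within 5000 bp of a gene end. In WT only regions it was 18.9%, 11.4%, 29.2% and 46.0% in the same order, 26.8% with −log10 q of at least 5, 0% with the first WT pair and 30.4% by the promoter table's starts. In shared regions it was 21.8%, 19.9%, 20.3% and 38.9%, then 21.1%, 22.0% and 21.3%, and 22.0% with all 4 WT libraries. One letter off in the motif gave 3.78% of WT only and 11.7% of shared windows. The cause of these moves was not tested.

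With 1 library left out, KO only regions numbered 383 to 917 and WT only 2241 to 4020, KO only genes 126 to 306 and WT only genes 743 to 1220, and WT only regions near a gene end made up 27.7% to 32.5%. Without one, 2600 to 2775 shared regions were ahead in KO and 2393 to 2553 in WT, since fewer ranks must agree. Ranked among themselves, the regions with all 4 summits within 100 bp gave 1181 ahead in KO and 1068 in WT, an alternative chosen after seeing the data. The replicate numbers of the labels do not say what they share. With the replicate as a block the log2 ratio of peak number was -0.37 (p = 0.5, exact permutation within numbers), and over 7131 shared regions the deviations of same-numbered libraries had a correlation of 0.21. The counts of shared regions, chaperone genes and peak number kept their side under the other alternatives run.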

Other observations

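Strong WT only regions were unevenly spread over the chromosomes. Of the regions above the middle of both WT lists by −log10 p, 2.30% were WT only, and on chromosome 18 the share was 7.01% (11 of 157), the highest of all chromosomes. On that chromosome, 6 of all 541 regions were KO only (1.11%), 57 were WT only (10.5%) and 182 were shared (33.6%). The chromosome holds the regions nearest to Csnk1g3 and Pik3c3, with WT folds of 13.7 and 12.2 and of 10.6 and 24.7, that of Pcdh1, a protocadherin (6.77 and 6.003), and a pair inside Ctif, a translation factor of the nuclear cap-binding complex (6.17 and 6.69, and 5.97 and 6.52). Within 10 Mb of Txnip, 4 of 76 such regions were WT only (5.26%). These shares are descriptions of regions from 2 lists a genotype and were seen before they were chosen for report.

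Exact heat shock element letters under shared regions were also found in promoter windows of genes outside proteostasis. Aqp7, the glycerol channel of fat cells, had them in the window chr4:41048087-41048386, Slc29a1, a nucleoside transporter, in chr17:45592888-45593187, and Nr1h2, the oxysterol receptor LXR beta, in chr7:44553916-44554215. The mean rank by fold of these regions among the 7131 shared ones was 349.6 for Aqp7, 301.0 for Slc29a1 and 202.5 for Nr1h2. The genes were chosen after their values were seen.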
